A study of Mus musculus with 10 samples.

Results

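The 10 genes described here encode sensors of RNA and DNA, the adaptor proteins that pass their signal on, and enzymes that keep the cell's own nucleic acids from setting them off. They were taken as a list by symbol (Ifih1, Dhx58, Mavs, Zbp1, Tlr3, Tlr7, Myd88, Eif2ak2, Adar and Trex1), not by their values, and each matched 1 of the 22053 gene rows of the deposited table. The libraries were RNA-seq libraries of mouse kidney glomeruli, the capillary tufts that filter blood. There were 5 from wild-type mice and 5 from mice with the Col4a3 missense change p.G799R, a gene for a collagen chain of the glomerular basement membrane. The sources used here leave zygosity, strain, age, sex and the way glomeruli were isolated unstated, and name no treatment for these 10 libraries.

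Cells detect foreign or misplaced nucleic acids in the cytosol and in endosomes. In the cytosol, the helicases encoded by Ddx58 (RIG-I) and Ifih1 (MDA5) bind double-stranded RNA and signal through MAVS on mitochondria, while LGP2, the product of Dhx58, modulates them. In endosomes, TLR3 reads double-stranded RNA through the adaptor TRIF, and TLR7 reads single-stranded RNA through MyD88. ZBP1 binds nucleic acid in the left-handed Z form, PKR (Eif2ak2) stops translation when it binds double-stranded RNA, ADAR1 edits such RNA so that it is no longer detected, and TREX1 degrades stray DNA. Most of these pathways end in the production of type I interferon, which in turn raises the transcription of many of the sensors themselves.

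Of the 10 genes, 8 were higher and 1 was lower in G799R glomeruli, and Tlr7 was not called. Calls are limma adjusted p-values under 0.05 on log2(FPKM + 1), adjusted over all 13117 genes tested. FPKM is a fragment count scaled for transcript length and library total. On the same test 40.5% of all genes were called higher and 19.3% lower, so a call alone says little, and the sizes and the order of the libraries are given for each gene. The median log2 difference was 1.42 over the 10 genes and 0.17 over all genes tested. All 10 genes passed the filter of a mean of 0.5 FPKM in either group alone, Zbp1 narrowly in wild type. Whether each library came from a mouse of its own is not stated, so the spread behind the p-values may be technical.

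The composition of the libraries differed between the groups. As a first check of the label, all 12 podocyte markers were above 1 FPKM in every library. This low bar shows that podocyte RNA was present, and not how pure the glomeruli were. The 12 proximal tubule markers summed to 4808 to 9507 FPKM in wild type and to 674 to 1998 FPKM in G799R. The mean log2(FPKM + 1) of 24 tubule markers was 6.67 ± 0.27 among wild-type libraries and 4.21 ± 0.45 among G799R libraries (SD, n = 5 each), and that of 36 glomerular markers was 6.53 ± 0.25 and 7.24 ± 0.08. In such bulk samples fewer cells of a type and less RNA per cell cannot be told apart. The differences of the 10 genes are therefore also given with the glomerular marker score set equal in all libraries, called glomerular marker scaling, and so are the counts and most values of related genes. Over all genes tested this gave a median log2 difference of −0.46, with 3.68% of genes called higher and 66.3% lower. With the tubule marker score as a covariate, limma called 0 genes of either direction (776 at an unadjusted p under 0.05). The tubule score did not overlap between the groups, at 6.22 to 6.91 in wild type and 3.66 to 4.66 in G799R. This fit therefore cannot tell the score and the group apart. The part of tubule content in the differences was not tested.

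The start regions of the members were searched for the core of the interferon-stimulated response element, a GAAA followed 2 bases later by another GAAA, because 7 of the members followed interferon-induced genes from library to library, as described further on. RefSeq windows on GRCm38.p6, from 250 bases before to 50 bases after an annotated start, were at hand for 7 of the 10 genes (10 windows). On either strand the motif lay in the windows of 3 members, Ifih1, Myd88 and Eif2ak2, and in those of 3.99% of the 27025 genes with a window (3.44% of 32851 windows). A shorter form, GAAANNGAA, which contains the first and was searched after its result was seen, lay in the windows of 4 members, Adar being added, and in those of 9.76% of all genes (8.56% of windows). The windows of Mavs, Tlr3 and Trex1 held neither form, and Dhx58, Zbp1 and Tlr7 had no window. Tlr3 and Trex1 are among the 7 members that followed interferon-induced genes. Myd88, which held a match, is not among the 7. The 30 bases around a match follow for these members and for Isg15, an interferon-induced gene, 5′ to 3′ on the strand of the gene, with the match in capitals.
Ifih1: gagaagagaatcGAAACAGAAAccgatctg
Eif2ak2: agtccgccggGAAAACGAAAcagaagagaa
Myd88: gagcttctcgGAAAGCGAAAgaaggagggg
Adar: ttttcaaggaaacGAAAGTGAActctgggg
Isg15: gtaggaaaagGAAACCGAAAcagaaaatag
The Ifih1 site is at chr2:62646206-62646235 and its match begins at base 33 of the transcript, and the Eif2ak2 site is at chr17:78882535-78882564 with its match beginning at base 19. The Myd88 match begins 40 bases before the start (chr9:119340039-119340068), and the Adar match begins at base 34 after the third of the 3 Adar starts (chr3:89730738-89730767). The bases checked after this Adar start were not found in a GENCODE M21 transcript of the gene, unlike those of the other 9 member windows. The other Adar windows held neither form of the motif. Isg15 holds 3 overlapping matches, of which the one shown begins 72 bases before the start (chr4:156200871-156200900). The genes lie on the minus strand except Adar. These are matches of letters and no measure of binding.

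Ifih1, which encodes the long double-stranded RNA sensor MDA5, lies on chromosome 2 at 62595798 to 62646255 (GENCODE M21, GRCm38, which may differ from the authors' build). It stood at 8.86, 5.99, 6.64, 6.08 and 8.10 FPKM in wild-type libraries 1 to 5 and at 18.2, 19.8, 56.2, 42.3 and 10.8 FPKM in G799R libraries 1 to 5. Every G799R library was above every wild-type library, and libraries 3 and 4 were far above the other G799R libraries. The mean rose from 7.13 ± 1.29 to 29.5 ± 19.0 FPKM (SD, n = 5 each), 4.13-fold, with a log2 difference of 1.68 ± 0.36 (SE) and a limma adjusted p of 0.00215. Without G799R libraries 3 and 4 the rise was 2.28-fold and still called, and under glomerular marker scaling the log2 difference was 1.02 (adjusted p = 0.0127).

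Dhx58, whose product LGP2 lacks the signalling domain of the other helicases of its family, was at a low level in wild type. Its values were 1.22, 1.07, 0.845, 0.589 and 1.75 FPKM in wild type and 6.27, 6.42, 25.1, 20.4 and 2.33 FPKM in G799R. The groups did not overlap, although G799R library 5 came close to wild-type library 5. The mean was 11.1-fold higher in G799R, with a log2 difference of 2.28 ± 0.48 and an adjusted p of 0.00188. Without G799R libraries 3 and 4 the mean was 4.58-fold higher. Under glomerular marker scaling Dhx58 kept its call, at a log2 difference of 1.78.

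Mavs, the mitochondrial adaptor on which both RNA helicases depend, moved the other way. It was the member with the highest mean in wild type, at 15.3, 17.7, 19.2, 23.1 and 23.3 FPKM in libraries 1 to 5. In G799R it lay between 11.98 and 14.2 FPKM, below every wild-type library, and it varied little there, with the highest library 1.19 times the lowest. The mean fell from 19.7 ± 3.49 to 13.4 ± 1.02 FPKM, 1.48-fold lower, with a log2 difference of −0.52 ± 0.11 and an adjusted p of 0.0023. Glomerular marker scaling, which lowers most genes, gave −1.20. Tubule markers fell in the same libraries. With the tubule score as a covariate the log2 difference of Mavs turned to 0.20 and was not called (limma adjusted p = 0.96). That fit called 0 genes and cannot separate the score from the group, so nothing is read from this value.

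**Figure D1:**
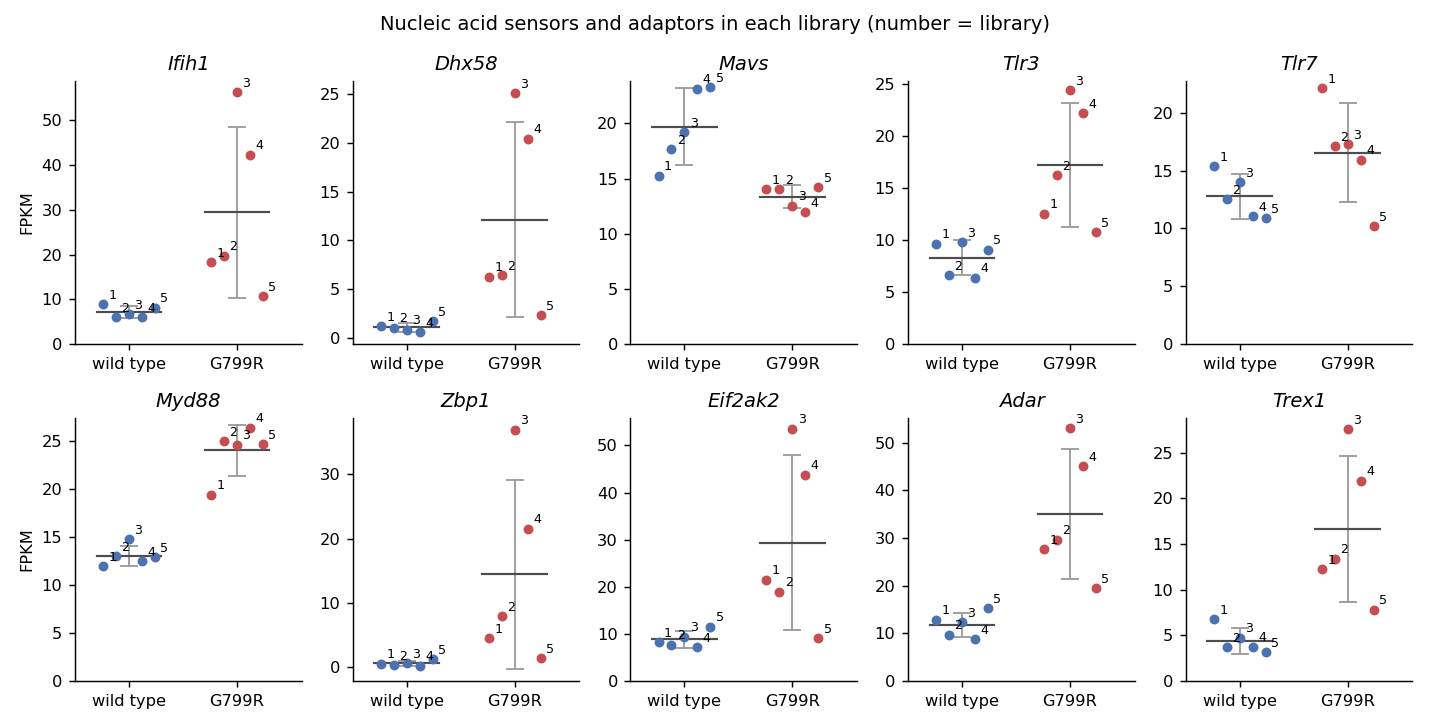
FPKM (vertical axis, a scale of its own for each gene) of the 10 genes in each library, with the group mean as a horizontal bar, the SD as whiskers and the library number beside each point. In 7 genes G799R library 3 is the highest and library 4 the next, while Mavs is lower and Tlr7 and Myd88 show no such rise in these libraries.

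Tlr3, the endosomal receptor for double-stranded RNA, rose 2.07-fold. It was at 9.66, 6.63, 9.83, 6.40 and 9.10 FPKM in wild type and at 12.5, 16.3, 24.4, 22.2 and 10.8 FPKM in G799R. The groups did not overlap, with G799R library 5 nearest to wild type. The log2 difference was 0.92 ± 0.21 with an adjusted p of 0.00326, and it was 0.26 and no longer called under glomerular marker scaling (adjusted p = 0.2).

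Tlr7, the endosomal receptor for single-stranded RNA, was not called. Its wild-type libraries lay at 15.4, 12.5, 14.0, 11.03 and 10.9 FPKM and its G799R libraries at 22.1, 17.1, 17.2, 15.9 and 10.2 FPKM. The highest G799R library was number 1, and number 5 was below all wild-type libraries. The log2 difference was 0.32, with a 95% interval of −0.05 to 0.69 and an adjusted p of 0.117. Without G799R library 5 it was 0.47 and called (adjusted p = 0.00807), whereas glomerular marker scaling turned it to −0.36, which was not called (adjusted p = 0.0743).

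Myd88, the adaptor that TLR7 shares with most Toll-like receptors and with the interleukin 1 receptor, rose without the excess of G799R libraries 3 and 4 seen in most members. It was at 11.98, 13.0, 14.8, 12.5 and 12.9 FPKM in wild type and at 19.4, 25.0, 24.7, 26.4 and 24.7 FPKM in G799R. Library 1 was the lowest G799R library, and library 5, which was the lowest for 8 of the 10 genes, stood with the others. The mean rose 1.85-fold, from 13.0 ± 1.06 to 24.1 ± 2.68 FPKM, with a log2 difference of 0.83 ± 0.09. The adjusted p of 1.8e-05 was the smallest of the 10 genes. The log2 difference was 0.14 and not called under glomerular marker scaling (adjusted p = 0.32). Myd88 overlaps the peroxisomal thiolase gene Acaa1a on the opposite strand (36.6 FPKM in wild type and 28.6 FPKM in G799R), and the counting is not stated to use strand, so reads from the shared stretch cannot be told apart. Opposite-strand genes also overlap Dhx58, Tlr3, Eif2ak2 and Adar, of which only Chrnb2, at the Adar locus, has a value here (0.5 and 0.57 FPKM).

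Zbp1, whose protein binds Z-form RNA and DNA and can start necroptosis, showed the largest fold of the 10 genes. It stood at 0.479, 0.243, 0.606, 0.165 and 1.18 FPKM in wild type. In G799R it stood at 4.47, 7.87, 37.0, 21.5 and 1.33 FPKM, a 27.7-fold range within the group, and library 5 was close to wild-type library 5. The ratio of means was 27.0, which became 16.5 without G799R library 3 and 8.54 without libraries 3 and 4. The log2 difference was 2.73 ± 0.62 (adjusted p = 0.003), and 2.32 under glomerular marker scaling, where it was still called. At such low wild-type levels the pseudocount of 1 understates the change, and a pseudocount of 0.1 gave 3.95.

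Eif2ak2, which encodes the translation-blocking kinase PKR, was the called gene whose groups overlapped. Wild-type libraries lay at 8.25, 7.67, 9.42, 7.19 and 11.5 FPKM, and G799R libraries at 21.5, 18.9, 53.6, 43.8 and 9.06 FPKM. G799R library 5 was below wild-type libraries 3 and 5, and the other 4 were above all of wild type. The mean rose 3.33-fold, and 1.87-fold without G799R libraries 3 and 4. Its log2 difference was 1.4 ± 0.38 with an adjusted p of 0.00828, and under glomerular marker scaling it was 0.73 and not called (adjusted p = 0.0756).

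Adar, whose interferon-induced long form also carries a Z-nucleic acid binding domain, rose 2.97-fold. Its values were 12.9, 9.74, 12.3, 8.79 and 15.2 FPKM in wild type and 27.7, 29.7, 53.0, 45.0 and 19.5 FPKM in G799R, with no overlap. The log2 difference was 1.43 ± 0.24 (adjusted p = 0.000477) and 0.74 under glomerular marker scaling (adjusted p = 0.00687). The table gives 1 value per gene, so the long and the short form of Adar are not told apart.

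Trex1, the exonuclease that removes DNA from the cytosol, rose 3.76-fold. It was at 6.76, 3.69, 4.71, 3.75 and 3.17 FPKM in wild type and at 12.3, 13.4, 27.6, 21.9 and 7.81 FPKM in G799R, with no overlap between the groups. The log2 difference was 1.61 ± 0.29 (adjusted p = 0.000712) and 0.98 under glomerular marker scaling (adjusted p = 0.00376). Trex1 lies within the locus of Atrip, a DNA damage gene on the same strand, so exonic reads they share cannot be told apart in these files. Atrip was at 4.78 FPKM in wild type and 5.70 FPKM in G799R.

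**Figure D2:**
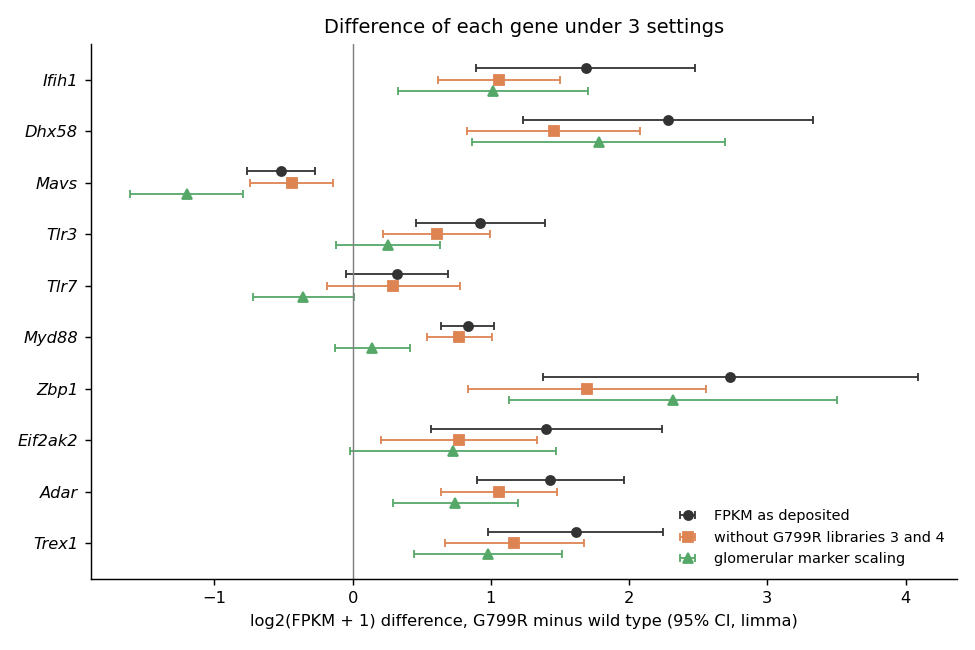
Log2(FPKM + 1) difference of each gene, G799R minus wild type, with its 95% limma interval, for FPKM as deposited, without G799R libraries 3 and 4, and with glomerular marker scaling. Ifih1, Dhx58, Zbp1, Adar and Trex1 lie above 0 in all 3 settings and Mavs below it, while Tlr7 changes side.

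Across the list, the groups did not overlap for 7 genes that were higher and for Mavs, against 26.1% and 15.7% of all genes tested. Without G799R libraries 3 and 4 the counts were still 8 higher and 1 lower, where 37.1% and 17.2% of all genes were called. Under glomerular marker scaling 5 members were called higher, namely Ifih1, Dhx58, Zbp1, Adar and Trex1, and Mavs was called lower. Of all genes 3.68% were then called higher and 66.3% lower, so the call of Mavs says little there. The median of the 10 genes was then 0.73, beside −0.46 for all genes. Median-of-ratios scaling, which balanced the calls of all genes at 23.3% higher and 25.5% lower, left 8 members higher and 1 lower. With replicate numbers as a block, although the labels give nothing but the shared numbers, 9 were higher, Tlr7 being added, and 1 lower, beside 37.6% and 18.7% of all genes.

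The order of the genes by level also changed. In wild type the mean fell from Mavs over Myd88, Tlr7, Adar, Eif2ak2, Tlr3, Ifih1, Trex1 and Dhx58 to Zbp1. Mavs ranked first in 4 wild-type libraries and second in library 1, and Dhx58 ranked next to last and Zbp1 last in all 5. In G799R, Adar had the highest mean and Mavs ranked 9 of 10 by its mean. By library, Mavs ranked 6, 7, 10, 10 and 3 in G799R libraries 1 to 5, so its low place rests on libraries 3 and 4, where other members were high. Neighbours in the middle of the wild-type order, such as Myd88, Tlr7 and Adar, overlapped in their library values and are not separated by this order.

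The G799R libraries differed among themselves in the same way for most members. Library 3 was the highest and library 4 the next for 7 genes (Ifih1, Dhx58, Zbp1, Tlr3, Eif2ak2, Adar and Trex1), and library 5 was the lowest G799R library for these 7 and for Tlr7. A set of 6 reference genes known to be induced by interferon includes Isg15, Irf7, Ifit1, Usp18 and Oasl2. Their mean also had library 3 highest, library 4 next and library 5 lowest. Libraries 1 and 2 were not in a shared order, since Eif2ak2 had library 1 above library 2, unlike this mean. That mean of log2(FPKM + 1) was 8.02 for library 3, 7.54 for library 4, 5.83 for library 2, 5.68 for library 1 and 4.20 for library 5, against 2.33 to 3.70 in wild type. The 5 named reference genes were all called higher, from 11.8-fold for Oasl2 to 44.3-fold for Irf7. Myd88, Tlr7 and Mavs did not have libraries 3 and 4 as the 2 highest.

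**Figure D3:**
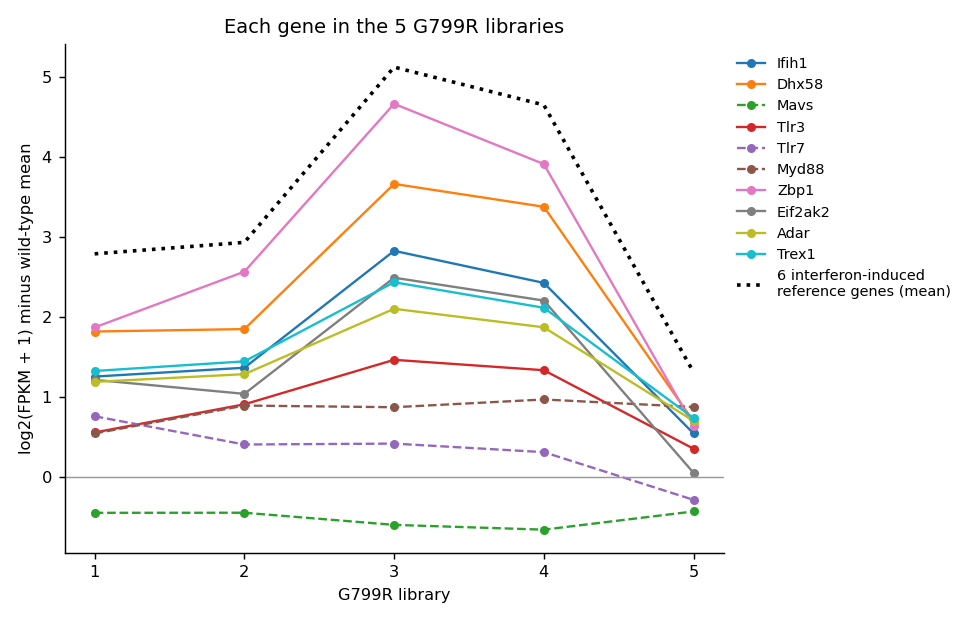
Log2(FPKM + 1) of each gene in the 5 G799R libraries minus its wild-type mean, with the mean of 6 interferon-induced reference genes as a dotted line. The libraries have no order and lines only join values of 1 gene; solid lines peak in library 3 and drop in library 5, and the dashed lines of Mavs, Tlr7 and Myd88 stay flat or differ.

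After subtraction of group means, the correlation over the 10 libraries described how closely members moved together. Pearson's r was 0.98 between Ifih1 and Dhx58, 0.97 between Zbp1 and Eif2ak2 and 0.95 between Tlr3 and Adar. It was 0.22 between Ifih1 and Myd88, 0.39 between Ifih1 and Tlr7 and −0.41 between Ifih1 and Mavs. These values are given as a description, and the points share libraries, depth and composition, with G799R libraries 3, 4 and 5 carrying much of the spread. The genes closest to each member by the same measure were taken without regard to function. They were picked as the highest r among the tested genes above a minimum level, over only 10 libraries, so the picking alone makes r high. For Ifih1 they were Oas1g, Ddx60 and Lgals3bp (r = 0.99 each), for Dhx58 they were Ddx58, Hap1 and Ogfr (0.99 each), and for Zbp1 they were Irf7, Parp9 and Parp14 (0.99 each). Eif2ak2 was closest to Usp18, Ddx58 and Ifit3b (0.99 each) and Adar to Zc3hav1, Slfn2 and Ifi204 (0.98 to 0.99). Tlr3 was closest to Psme1, Phf11b and Mlkl (0.96 to 0.97), and Trex1 to 9930111J21Rik1, Cmtr1 and Trim34b (0.94 to 0.97). The closest genes of Mavs were Svopl, Zfp771 and Adap1 (0.95 to 0.96), those of Tlr7 Cdc14a, Nek1 and Cd72 (0.91 to 0.93), and those of Myd88 Rnf8, C1galt1c1 and Ptprk (0.90 to 0.96).

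Ratios of gene pairs within a library are nearly free of how libraries are scaled, apart from the pseudocount of 1. They are not free of cell composition, and tubule markers and Mavs fell in the same libraries. The part of composition in the ratios was not tested. In all, 8 ratios were compared with an exact two-sided permutation test, with Benjamini-Hochberg adjustment over the 8. The ratio of the sensor Ifih1 to its adaptor Mavs was higher in all 5 G799R libraries than in any wild-type library. On the log2 scale it went from −1.35 ± 0.38 to 0.85 ± 1.02 (SD, n = 5 each), with an exact p of 0.0079, the smallest possible, and an adjusted p of 0.032. Trex1 to Mavs went from −1.95 ± 0.57 to 0.17 ± 0.77 with the same p-values and no overlap. Both separations follow from the single genes, since Ifih1 and Trex1 were above and Mavs below every wild-type library in G799R. These p-values therefore add nothing to the single-gene values. With 1 library left out, where no exact p can be below 0.016, the differences ran from 1.89 to 2.51 for Ifih1 to Mavs and from 1.90 to 2.37 for Trex1 to Mavs. The mean ratio of Dhx58 to Ifih1 was higher by 0.60, with 4 of 5 G799R libraries above all of wild type, but this missed the adjusted threshold (exact p = 0.024, adjusted p = 0.063), and so did the differences of 1.3 for Zbp1 to Adar, 0.60 for Tlr3 to Tlr7 and −0.51 for Tlr7 to Myd88 (exact adjusted p = 0.074 each). The Dhx58 to Ifih1 and Zbp1 to Adar ratios passed it with a pseudocount of 0.1 (exact adjusted p = 0.032 each). Eif2ak2 to Adar differed by −0.03 (exact p = 0.87), and its G799R libraries lay on both sides of the wild-type range, 2 above and 2 below.

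**Figure D4:**
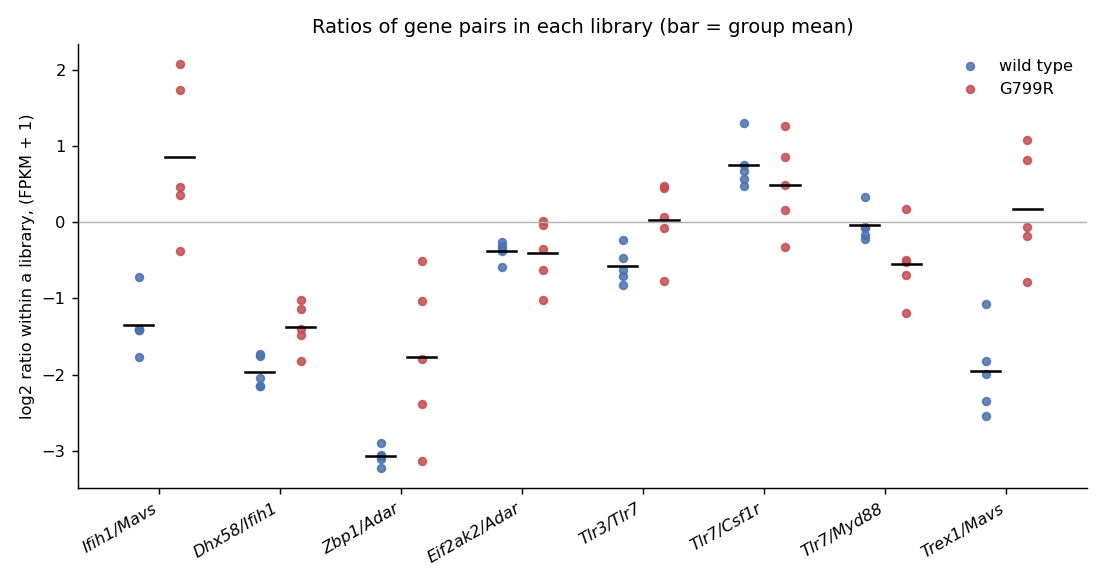
Log2 ratio of 2 genes within each library, from FPKM + 1, for 8 pairs in wild type and G799R, with the group mean as a bar. The Ifih1 to Mavs and Trex1 to Mavs ratios do not overlap between the groups, and the Eif2ak2 to Adar ratios spread to both sides of wild type in G799R.

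Other genes of nucleic acid sensing were taken from lists by role, and 100 of them were tested. Of these 54 were called higher and 11 lower, beside 40.5% and 19.3% of all genes, with a median log2 difference of 0.28. Under glomerular marker scaling 12 were called higher and 62 lower, beside 3.68% and 66.3% of all genes. The counts of each list are to be read beside the same shares, and alone they say little about a list. Among 18 genes of RNA helicase sensing 10 rose and 2 fell (2 and 11 under the scaling). Ddx58, the RIG-I gene, rose from 12.6 ± 1.6 to 38.5 ± 19.6 FPKM, 3.06-fold (adjusted p = 0.00195). The antiviral helicase gene Ddx60 rose 7.19-fold and Zc3hav1, which encodes the CpG-binding antiviral protein ZAP, 2.25-fold, whereas Dhx36 rose 1.38-fold and Tkfc, a metabolic kinase that also binds MDA5, was 2.21-fold lower. Under glomerular marker scaling Ddx58 (0.70) and Ddx60 (1.36) were still called higher and Tkfc (−1.80) lower, Zc3hav1 (0.37) was not called and Dhx36 was called lower, at −0.24.

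Of 15 genes of cytosolic DNA sensing 8 rose and 4 fell (1 and 10 under glomerular marker scaling). Of all genes, 40.5% were called higher and 19.3% lower (3.68% and 66.3% under the scaling). Tmem173, which encodes the adaptor STING, rose from 3.22 ± 0.82 to 7.99 ± 0.48 FPKM, 2.48-fold (adjusted p = 2.71e-05), and its G799R libraries were close to each other. Cgas, the enzyme upstream of STING, was at 0.552 ± 0.064 and 1.001 ± 0.21 FPKM (adjusted p = 0.0096), and was not called under the scaling (0.05), where Tmem173 was (0.52). Slc19a1 and Enpp1, which carry and cleave the messenger cGAMP, were 3.69-fold and 3.43-fold lower, and the DNA end-binding gene Xrcc5 was 1.69-fold lower.

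Of 18 genes of endosomal Toll-like receptors and their handling 12 rose and 1 fell (4 and 6 under glomerular marker scaling). The shares of all genes were 40.5% higher and 19.3% lower (3.68% and 66.3% under the scaling). Unc93b1, the chaperone that brings TLR3 and TLR7 to endosomes, rose 2.10-fold, and Slc15a3, a transporter of the endolysosome, 3.24-fold. Ctsl and Lgmn, proteases that can trim these receptors, went in opposite directions, 1.83-fold higher and 3.14-fold lower. Tlr8, Tlr9 and Tlr13 were all called higher, at G799R means of 0.919, 0.879 and 1.88 FPKM. Under the scaling Unc93b1 (0.35), Slc15a3 (0.78) and Tlr13 (0.45) were still called higher and Lgmn (−2.34) lower, whereas Ctsl (0.14), Tlr8 (0.28) and Tlr9 (0.34) were not called. Ticam1, which encodes the TLR3 adaptor TRIF, was at 6.56 ± 1.13 and 5.88 ± 0.60 FPKM as deposited (limma adjusted p = 0.353), and glomerular marker scaling put it lower, at −0.75 and called.

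Of 16 partners of the double-stranded and Z-form RNA effectors 8 rose and 0 fell, and under glomerular marker scaling 1 was called higher and 12 lower. For this list and those below, the shares of all genes were 40.5% higher and 19.3% lower (3.68% and 66.3% under the scaling). Mlkl, the executioner of necroptosis downstream of ZBP1, rose 3.79-fold and Ripk3, the kinase between them, 1.84-fold. Casp8, a protease of cell death, rose 1.55-fold and the RNA-binding gene Stau1 1.29-fold. Under the scaling Mlkl was still called higher (1.02), Ripk3 (0.12) and Casp8 (−0.08) were not called, and Stau1 was called lower (−0.35). Among 19 genes of signal relay 11 rose and 1 fell (1 and 12 under the scaling). The kinase gene Tbk1 rose 1.34-fold and the NF-kappaB genes Rela and Nfkb1 1.67-fold and 1.71-fold, while Chuk was 1.53-fold lower. Under the scaling Tbk1 turned to a call of lower (−0.29), Rela (0.02) and Nfkb1 (0.05) were not called, and Chuk was still called lower (−1.28). Irf3, the transcription factor these kinases activate, was at 27.96 ± 1.22 and 29.7 ± 5.27 FPKM (limma adjusted p = 0.611), and was called lower under glomerular marker scaling, at −0.64, whereas Irf7 rose as described with the reference genes. Of 14 nucleases and related controls 5 rose and 3 fell (3 and 11 under the scaling), with Samhd1, which depletes nucleotides, 3.07-fold higher and Pld4, an exonuclease, 2.43-fold higher. Dnase1 and Rnaset2b were 5.004-fold and 2.25-fold lower, and all 4 kept their direction and call under the scaling. Tubule markers fell in the same libraries. Irf3, Ddx58, Ripk3, Cgas, Ticam1, Irf7 and the low Toll-like receptors were named for their place in the pathway after their values were seen.

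**Figure D5:**
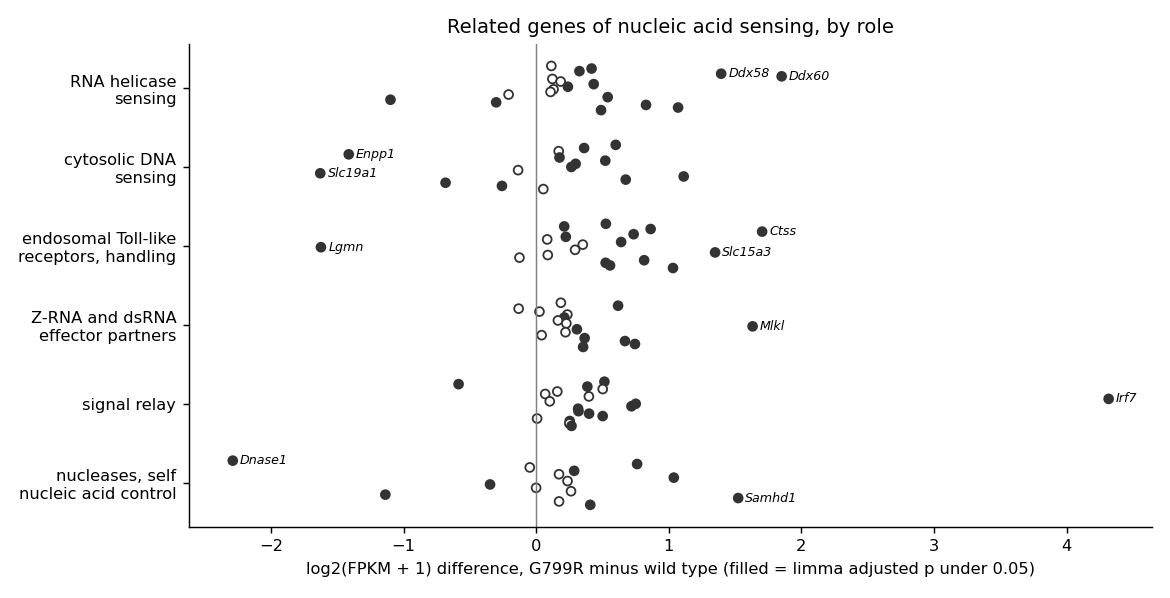
Log2(FPKM + 1) difference, G799R minus wild type, of 100 related genes in 6 lists by role, with filled points for limma adjusted p under 0.05. Most filled points lie above 0, with Irf7 farthest to the right and Dnase1 farthest to the left.

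The genes of the interferons were listed at or near 0. Of 12 interferon genes listed, 9 were at 0 FPKM in all 10 libraries. Ifnb1 was listed at 0.091 FPKM in G799R library 4, Ifng at 0.155 FPKM in G799R library 5 and Ifnz at 0.042 FPKM in wild-type library 1, and each was at 0 elsewhere. None reached the filter, so none was tested, and FPKM without read counts sets no limit on what a 0 allows.

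Markers of blood cells that carry many of these receptors were also measured. Of 15 macrophage and myeloid markers 9 rose and 0 fell, beside the 40.5% and 19.3% of all genes, and 4 were called higher and 0 lower under glomerular marker scaling. Their summed level ran from 60.7 to 137 FPKM in wild type and from 143 to 253 FPKM in G799R. From highest to lowest, the mean log2(FPKM + 1) of these markers ran over G799R libraries 2, 1, 5, 3 and 4. That of the plasmacytoid dendritic cell markers ran 3, 4, 2, 1 and 5, and that of the glomerular markers 3, 4, 2, 5 and 1. The B cell mean ran 1, 5, 2, 3 and 4, that of T and NK cells 5, 1, 2, 3 and 4, and that of neutrophils 5, 1, 3, 2 and 4. In most sensors library 3 was highest, library 4 next and library 5 lowest. Csf1r, the macrophage growth factor receptor, was at 7.34 ± 2.37 and 12.3 ± 6.32 FPKM and missed the threshold (limma adjusted p = 0.109). The Tlr7 to Csf1r ratio differed by −0.27 on the log2 scale (exact p = 0.42). Of 7 plasmacytoid dendritic cell markers 2 were tested, Bst2 and Tcf4, and both were called higher. Bst2 is itself induced by interferon and went from 14.8 to 152 FPKM in the mean, within a summed level of the list (36.1 to 54.3 FPKM in wild type and 73.2 to 372 FPKM in G799R), and Tcf4 was called lower under glomerular marker scaling, at −0.41. Siglech, a defining marker, was at 0.235 and 0.722 FPKM and fell below the filter. The other 4 also fell below it, and their means were lower in G799R. Ly6d was at 0.54 and 0.164 FPKM and Pacsin1 at 0.272 and 0.089 FPKM. Cox6a2 was at 0.228 and 0.0592 FPKM and Ccr9 at 0.123 and 0.101 FPKM. Of 5 B cell markers 2 were tested and 1 fell, the list of 8 T and NK cell markers had 2 tested and 0 called, and that of 6 neutrophil markers had 4 tested and 0 called. Their summed levels ran in wild type and G799R from 1.94 to 4.08 and 0.56 to 2.86 FPKM for B cells, 1.81 to 2.86 and 2.42 to 6.99 FPKM for T and NK cells, and 13.8 to 42.3 and 17.4 to 164 FPKM for neutrophils. The upper neutrophil value came from G799R library 5 alone, with S100a9 at 106.7 and S100a8 at 40.2 FPKM. Elsewhere in G799R these 2 genes ran from 9.59 to 24.1 and from 4.06 to 6.83 FPKM. No marker of these lists was at 0 in all libraries. The part of such cells in the sensor values was not tested.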

How the data were processed

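The authors deposited 1 table of FPKM values for 22053 Ensembl gene identifiers in 10 libraries, 1 column each, matched to libraries through the column names in the labels; 0 columns belonged to other samples. The submitters' processing notes name StringTie 1.3.1, RSEM, HISAT2, Bowtie2 2.2.8 and fastp 0.18.0, without roles, and no build. Each library's FPKM summed to between 320720 and 340875. Absolute depth is unknown, so no counting interval was computed. Steps between low values gave relative depths of 0.861 to 1.19, with wild-type library 1 as the unit, from 43 to 64 of 618 to 730 low genes compared. The mean relative depth was 1.088 in wild type and 0.9275 in G799R, and G799R library 3 was the lowest.

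Symbols were found for 21963 identifiers. Values were used as log2(FPKM + 1), genes averaging 0.5 FPKM or more over all libraries were kept, and limma-trend (limma 3.58.1, R 4.3.3) gave two-sided p-values with Benjamini-Hochberg adjustment. The code was tested on simulated data. The members, the related and marker lists and all tests were chosen with earlier results of these data known. The naming rule took all members, the up to 4 genes of smallest p in each related list, detected interferon genes, 6 reference genes and the 3 closest genes per member; 2 of these genes and 1 promoter motif are not reported here. Of 117 related names 2 matched no row, 1 being an older name of Cgas. Glomerular marker scaling multiplied each library's FPKM so that its mean log2(FPKM + 1) over 36 podocyte, endothelial and mesangial markers was equal. Other alternatives were pseudocounts, filters, median-of-ratios and quantile scaling, limma settings, a replicate block, a tubule covariate and left-out libraries.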

Additional observations from a re-analysis of the deposited data

Results flagged for a closer look

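In groups of 5 libraries, a library was singled out where its gap to the nearest other exceeded 0.71 of the group's range, which chance gives for about 1 in 20 groups. Among the members this happened for Myd88, where G799R library 1 was low at 4.35 on the log2(FPKM + 1) scale, with the other 4 between 4.68 and 4.78. Among other genes and scores, Usp18 was high in wild-type library 5 (2.88, next 2.11), and Tkfc was low in G799R library 5 (4.21, next 4.52). Enpp1 was low in wild-type library 1 (2.51, next 2.96), and the podocyte marker score was low in wild-type library 4 (7.41, next 7.58). In all, 5 of the 122 groups checked passed this limit.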

How the results depend on the processing

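The 8 higher and 1 lower calls among the members held under other pseudocounts, filters, limma settings, median-of-ratios and quantile scaling and with each library left out, except that Tlr7 was called in addition without G799R library 5. Glomerular marker scaling left 5 higher, with 12 higher and 62 lower among related genes and 483 and 8701 among all genes, and it reversed Tlr7 (−0.36). Median-of-ratios scaling called 3057 genes higher. The tubule score as a covariate left 0 higher and 0 lower in each of these counts and reversed Mavs (0.20). That score does not overlap between the groups, so this fit cannot tell score and group apart, and the cause was not tested. The replicate block, with numbers shared by the labels alone (same-number r from −0.08 to 0.05; 0 of 5 wild-type libraries correlated best with their own number), called 4937 genes higher and 2451 lower and added Tlr7 (0.32, adjusted p = 0.0296). Of the 8 ratios 2 passed as given, 4 with a pseudocount of 0.1 or none, 0 to 4 with 1 library left out and 0 without G799R libraries 3 and 4, where exact tests cannot go below 0.016 (4 against 5 libraries) and 0.036 (3 against 5). No paired analysis of the ratios was run, since 5 pairs allow no exact p below 0.0625. Eif2ak2 to Adar ran from −0.13 to 0.13 with 1 library left out, reversing without G799R library 2 (0.02) or 5 (0.13), and was not called in any of these. FPKM gives no counts, so the precision of low genes such as Zbp1 in wild type is not known.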
